A study of Homo sapiens with 12 samples.

Results

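The replication-dependent histone genes are the genes for histones H1, H2A, H2B, H3 and H4 that cells transcribe while they copy their DNA. They were taken as the rows of the count table whose gene identifier maps to a current symbol H1-1 to H1-6 or to a numbered symbol of the series H2AC, H2BC, H3C or H4C. This gave 65 genes of the 23434 in the table, with 6 for H1, 15 for H2A, 18 for H2B, 12 for H3 and 14 for H4. Of these, 54 lie on chromosome 6, 10 on chromosome 1 and 1, H4C16, on chromosome 12. Another 4 genes that match by name, H2AC13, H2AC18, H3C15 and H4C15, were not analysed here.

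The cells were U2OS-MycER, human osteosarcoma cells with a Myc-estrogen receptor fusion, which moves to the nucleus when 4-hydroxytamoxifen (OHT) binds it. All 12 libraries came from cells that had been infected with shRNA virus and given 1 µg/mL doxycycline to switch the shRNA on, then held in mitosis with 100 ng/mL nocodazole for 8 h, shaken off and let go for 12 h. The 4 groups of 3 libraries were shNT (a non-targeting shRNA, no OHT), shNT+OHT (300 nM OHT for 40 h), shCDK12 (an shRNA against CDK12, no OHT) and shCDK12+OHT. The labels do not say whether the replicates were separate cultures, so the p-values measure the spread between these libraries, which may be technical. RNA made in the last 2 h was marked with 0.5 mM 5-ethynyl-uridine (EU), pulled down and sequenced (EU-seq), so counts follow newly made RNA and not the stock of mature mRNA.

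Replication-dependent histone genes sit in clusters, have no introns as a rule, and give mRNAs that end in a conserved stem-loop in place of a poly(A) tail. The stem-loop is bound by SLBP and the pre-mRNA is cut nearby with the help of the U7 snRNP, inside histone locus bodies that are organised by NPAT, a target of cyclin E and CDK2. The library kit did not select poly(A) RNA, so such transcripts could be captured. CDK12 is a kinase of the C-terminal domain of RNA polymerase II, and Myc is a transcription factor that binds E-boxes.

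The stem-loop was found in 62 of the 65 genes, and not in H3C6, H2BC10 and H4C13. For these 65 the GENCODE v44 transcripts were searched downstream of the stop codon. A search of whole transcripts, at any position, found it in 79 of 61228 gene names (0.129%) in that annotation. The commonest of the 7 versions was held by 37 genes of H1, H2A, H2B and H3 and by 0 of H4. The 13 H4 genes with a stem-loop held 2 versions that occurred in no other class. The sequences below are those of the 4 genes that were higher in the libraries labelled shCDK12 and of some that were lower, with the stem-loop in capitals, written as DNA from 5′ to 3′.
H1-2: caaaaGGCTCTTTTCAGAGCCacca
H2AC8: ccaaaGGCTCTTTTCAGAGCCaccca
H2AC15: aaaaaGGTTCTTTTCAGAGCCaccta
H2AC20: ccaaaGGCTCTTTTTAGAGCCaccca
H2BC7: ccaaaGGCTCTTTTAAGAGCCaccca
H2BC8: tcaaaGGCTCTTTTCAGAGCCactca
H2BC12: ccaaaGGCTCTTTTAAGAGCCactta
H4C3: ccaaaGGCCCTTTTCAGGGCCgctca
H4C4: ccaacGGCCCTTTTCAGGGCCaccta
H4C5: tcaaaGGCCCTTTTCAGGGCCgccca
H2AC8 and H2BC8, which were higher in the libraries labelled shCDK12, held the same 16 bases as H1-2, which was lower. H4C3 and H4C4, higher, held the same 16 bases as H4C5, lower. H2AC8, H2BC8 and H4C4 had enough counts to be tested only where they were high. Their contrasts in direction with lower genes are thus no result, which leaves that of H4C3 with H4C5.

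Promoters (250 bases before to 50 after the start site, from RefSeq on GRCh38.p14) were matched for 60 of the 65 genes and searched on both strands. CCAAT was in 51 of the 60 (85%), against 35.7% of 27305 promoters of the same length, with all 48 of the H1, H2A, H2B and H3 promoters and 3 of the 12 H4 promoters. The TATA box TATAAA was in 39 (65%, against 12%). The octamer ATTTGCAT, known as a site of POU2F1 (Oct-1), was in 26 (43.3%, against 1.8%), 25 of them in H2A and H2B. Paired H2A and H2B genes have start sites 192 to 246 bases apart, so their windows overlap and 1 site can count for both. For every motif, counts of genes are thus not counts of separate sites. The H1 box AAACACA was in 6 of 6 H1 promoters and in 2 of the others (5.76% of all promoters). The canonical Myc E-box CACGTG was in 0 of 60, against 7.43% of all promoters. No match says only that these letters are not in this window.

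The following 5 promoters are those of H4C4 and H2BC8, which were higher in the libraries labelled shCDK12, of H2AC15 and H2AC20, with the largest falls there without and with OHT, and of H1-2, which had the highest mean CPM. Capitals mark the CCAAT box, TATA box, octamer and H1 box on either strand, and each is written 5′ to 3′ along its gene. H4C4 is at chr6:26189063-26189362 (minus strand), H2BC8 at chr6:26216639-26216938 (minus), H2AC15 at chr6:27838326-27838625 (minus), H2AC20 at chr1:149886668-149886967 (plus) and H1-2 at chr6:26056421-26056720 (minus).
H4C4: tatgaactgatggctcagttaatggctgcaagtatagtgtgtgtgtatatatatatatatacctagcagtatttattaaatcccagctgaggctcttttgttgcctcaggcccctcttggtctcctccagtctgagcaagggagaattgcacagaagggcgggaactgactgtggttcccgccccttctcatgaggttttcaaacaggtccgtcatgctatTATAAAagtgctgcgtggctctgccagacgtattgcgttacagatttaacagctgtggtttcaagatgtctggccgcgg
H2BC8: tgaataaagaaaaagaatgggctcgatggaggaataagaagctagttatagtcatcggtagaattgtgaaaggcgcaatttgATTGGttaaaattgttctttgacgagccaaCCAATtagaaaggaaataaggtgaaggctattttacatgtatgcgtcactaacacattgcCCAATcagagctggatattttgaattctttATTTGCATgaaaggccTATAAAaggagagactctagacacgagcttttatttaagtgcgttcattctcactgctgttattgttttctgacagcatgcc
H2AC15: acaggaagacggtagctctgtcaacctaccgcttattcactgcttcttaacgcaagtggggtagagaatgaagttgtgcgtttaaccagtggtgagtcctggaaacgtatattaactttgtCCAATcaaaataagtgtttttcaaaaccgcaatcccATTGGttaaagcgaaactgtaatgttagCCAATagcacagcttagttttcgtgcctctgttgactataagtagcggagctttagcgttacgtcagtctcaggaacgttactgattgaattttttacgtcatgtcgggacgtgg
H2AC20: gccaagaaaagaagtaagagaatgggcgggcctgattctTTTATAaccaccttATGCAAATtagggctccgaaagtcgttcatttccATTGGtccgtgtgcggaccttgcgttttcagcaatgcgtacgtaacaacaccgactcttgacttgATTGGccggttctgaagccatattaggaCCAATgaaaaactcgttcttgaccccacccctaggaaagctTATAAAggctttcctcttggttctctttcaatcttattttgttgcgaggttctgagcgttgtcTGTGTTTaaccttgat
H1-2: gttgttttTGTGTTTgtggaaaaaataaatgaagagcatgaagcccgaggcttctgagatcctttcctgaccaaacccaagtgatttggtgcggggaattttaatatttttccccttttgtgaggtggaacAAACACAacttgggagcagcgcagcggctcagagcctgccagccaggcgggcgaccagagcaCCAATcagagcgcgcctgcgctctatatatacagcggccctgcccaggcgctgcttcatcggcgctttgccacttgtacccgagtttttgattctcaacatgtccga
A TATA box began 29 bases before the start site in both H4C4 and H2AC20 and 32 bases before it in H2BC8. H2BC8 and H2AC20 each held 3 CCAAT boxes and 1 octamer. The octamer began 48 bases before the start site on the plus strand in H2BC8 and 197 bases before it on the minus strand in H2AC20. H2AC20 also held a second TATA box and an H1 box. The windows of H2AC20, H2BC8 and H2AC15 overlap those of H2BC21, H2AC8 and H2BC15, with start sites 234, 231 and 192 bases apart. A match in 1 of these windows can thus belong to either gene of the pair. H2AC15 held 3 CCAAT boxes and neither TATAAA nor the octamer.

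Libraries held from 1251695 to 10447836 counts, with the shallowest in shNT+OHT, and the histone genes took from 0.6537% to 1.858% of a library. CDK12, the targeted gene, was at 323, 289 and 300.2 CPM in shNT and 434, 356 and 400.5 with OHT. Under the label shCDK12 it was at 293, 277 and 298 CPM, and at 215, 208 and 218 with OHT. CPM are counts scaled to a common library total with TMM factors. The test used throughout was the quasi-likelihood test of edgeR, with p adjusted by Benjamini-Hochberg over all genes tested, and log2 fold changes are given ± SE. Between the libraries labelled shCDK12 and shNT the difference in CDK12 was not called (log2 -0.076 ± 0.084, adjusted p = 0.445), and the sign of this value turned under 2 other scalings. It was lower in the libraries labelled shCDK12+OHT than in shNT+OHT (log2 -0.88 ± 0.11, adjusted p = 0.000107). Counts follow newly made RNA and not the mRNA stock, so these values do not show how far CDK12 was silenced. Groups are therefore given by their labels throughout. The line's mesenchymal markers were present, and their summed level was 1595 to 1677 CPM in shNT, 1069 to 1162 in shNT+OHT, 428 to 445 in the libraries labelled shCDK12 and 602 to 618 in those labelled shCDK12+OHT. Of these 7 markers 6 could be tested. All 6 were lower in the libraries labelled shCDK12 than in shNT (100%, against 32.8% of all genes). In shCDK12+OHT against shNT+OHT 4 of 6 were lower (66.7%, against 22.2%). With OHT 5 of 6 were lower in shNT (83.3%, against 8.49%). Under the label shCDK12 5 of 6 were higher with OHT (83.3%, against 27.6%). The 5 epithelial markers summed to 692 to 850.2 CPM in the other 3 groups and to 995 to 1079.7 CPM in the libraries labelled shCDK12+OHT. There 3 of 5 were higher (60%, against 27.6% of all genes) and 1 lower (20%, against 21.6%) than in those labelled shCDK12. CLDN4 was at 109.9, 109.6 and 97.8 CPM there, against 48.2, 41.5 and 43.5. In shCDK12 against shNT 1 of 4 tested epithelial markers was higher (25%, against 29.8% of all genes) and 2 were lower (50%, against 32.8%). In shCDK12+OHT against shNT+OHT 1 of 4 was higher (25%, against 24%) and 0 lower. The 2 neural markers summed to at most 18.2 CPM, the 4 leukocyte markers to at most 3.94 and the 2 hepatocyte markers to at most 1.62 CPM, and no marker was at 0 in all libraries. The part of the mesenchymal and epithelial shifts in the results below was not tested.

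Members were read very unevenly. Of the 65 genes, 37 passed the count filter (a mean normalized count over 32 in the libraries compared) in at least 1 comparison and 28 in none. Of the 28, 13 had at most 3 counts in every library, and H3C7 and H4C13 had 0 in all 12, where a count of 0 allows up to 0.287 CPM in the deepest library and 2.4 CPM in the shallowest (3 counts, counting error only). Nearest the filter, H4C12, H1-6 and H2BC1 stayed under it with means of 3.52, 2.96 and 2.29 CPM over the 12 libraries, while H2AC25 (6.21 CPM), H4C11 (8.23 CPM) and H2AC8 (9.68 CPM) passed it in some comparisons.

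Many of the 28 lay side by side. On chromosome 6 the 8 neighbours from H3C6 to H2BC10, with H1-3, H4C6, H4C7, H3C7, H2BC9 and H3C8 between them, never exceeded 5.51 CPM, and the 7 from H2AC16 to H2BC17, with H1-5, H3C11, H4C13, H3C12 and H2AC17, never exceeded 2.34 CPM. In the first run at most 2.54% of a gene's 50-base windows occurred in another gene's transcript. In the second the median was 0%, but H2AC17 shared 67.8% and H2BC17 10.8%, so that the counts of H2AC17 are uncertain. On chromosome 1 the 5 neighbours from H2BC18 to H2AC19 (H3C13, H4C14 and H3C14 between them) never exceeded 4.07 CPM, and there a median of 99.2% of windows were shared with another gene, so that their counts are uncertain. How the counting treated reads with several matches is not given in the sources used here. Among genes that were tested, H4C11 (92.1%), H2AC14 (66.3%) and H2BC12 (57.2%) shared most windows, and their values are uncertain for that reason, while H3C4 with H2AC7 and H2BC12 with H4C9 have overlapping annotated spans.

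Per length, the most highly read genes in shNT were H2AC20 at 2929 ± 150 CPM per kb (SD, n = 3), H1-2 at 2832 ± 187, H3C2 at 2609 ± 163, H1-4 at 2379 ± 114 and H4C5 at 2154 ± 132, followed by H2BC11 at 1477 ± 160 and H2AC11 at 1358 ± 135. Neighbours among the first 3 overlapped in their ranges over libraries, as did H2BC11 and H2AC11. In the libraries labelled shCDK12 the order was H1-2 (1621 ± 183 CPM per kb), H3C2 (1085 ± 61.3), H4C3 (750.8 ± 61.0) and H4C2 (726.4 ± 61.0), and H2AC20 was no longer among the first 7. These values leave out genes with an annotated span over 1000 bases, such as H2BC21 and H2BC12, whose span holds more than the short histone transcript.

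**Figure D1:**
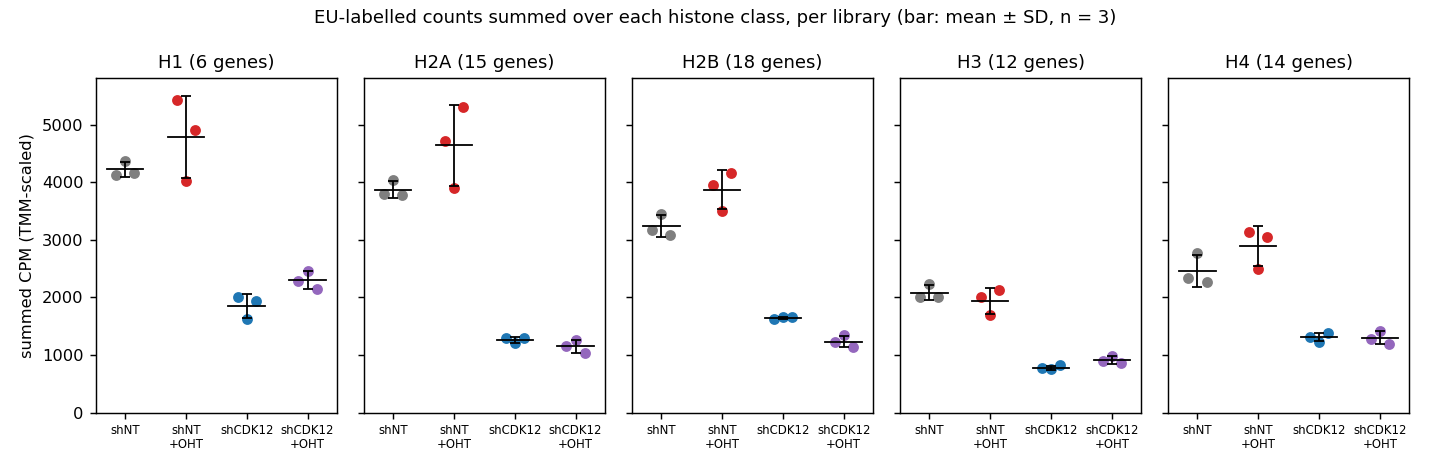
Summed CPM of all histone genes of each class (y axis) in each library of the 4 groups (x axis), with the mean and SD of 3 libraries. All 6 libraries labelled shCDK12, with or without OHT, sit under all 6 shNT libraries in every class.

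The comparison of shCDK12 with shNT asks how newly made histone RNA differs with the shRNA against CDK12. Histone RNA was lower as a whole. The 65 genes summed to 15443, 16839 and 15286 CPM in shNT and to 7015, 6469 and 7097 CPM under the label shCDK12, 2.31-fold lower on the means. They summed to 19202, 15603 and 19542 CPM in shNT+OHT and to 6852, 7475 and 6378 CPM in those labelled shCDK12+OHT, 2.62-fold lower. The loss was largest for H2A, the core histone that pairs with H2B, at 3.05-fold without OHT and 4.03-fold with it, and smallest without OHT for H4, at 1.87-fold. H1, the linker histone, was 2.28-fold lower without OHT and 2.08-fold lower with it. H2B was 1.96-fold lower without OHT and 3.13-fold lower with it, and H3 2.66-fold and 2.12-fold lower. These are sums relative to the other genes in a library. Counts of the mouse RNA that was mixed in were not used here, so a change of all transcripts together cannot be seen, and fewer cells in S phase and less RNA per cell cannot be told apart in such bulk libraries.

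Gene by gene, 30 of the 37 genes tested were lower in the libraries labelled shCDK12 than in shNT, 4 were higher and 3 passed neither way, where 62.5% of all 11444 genes tested were called (29.8% higher and 32.8% lower). The median log2 fold change of the histone genes was -1.27, against -0.029 over all genes. With OHT, 30 of 35 were lower, 4 higher and 1 neither, where 46.3% of 11120 genes were called (24% higher and 22.2% lower), and the median was -1.67 against 0.041. Groups did not overlap for 31 genes that were lower and 4 that were higher without OHT, where 33.9% and 31% of all genes did so, and for 30 and 4 with OHT, where 26.5% and 29.4% did. Of the 35 genes tested both times, 28 were lower in both comparisons and 4 were higher in both, and the comparisons share no library. Of the 36 genes with enough counts over all 12 libraries, 29 had all 6 libraries labelled shCDK12 below all 6 shNT libraries. Another 4 had them all above, and H1-1, H4C11 and H4C16 overlapped. Of all genes, 11.9% lay below in this way and 10.9% above. Of the 4 higher genes, H4C4, H2BC8 and H2AC8 passed the filter only where they were high, so their direction was set in advance. Of these 4, only H4C3 could have gone either way in these counts. The filter acted on lower genes with few counts too. H2AC15 and H2AC7 passed it only through shNT or shNT+OHT, where they were high, so their direction was likewise set in advance.

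Each class had members that were lower. For H1, 3 of 3 tested genes were lower without OHT, and for H3 4 of 4. For H2A 9 of 11 and for H2B 8 of 10 were lower, and for H4 6 of 9. All 4 risers that passed the filter were core histone genes, 1 of H2A, 1 of H2B and 2 of H4. Without a filter, or with the looser filter filterByExpr, 5 members were called higher without OHT. The linker gene H1-6, under the filter, was at 1.17, 0.781 and 3.01 CPM in shNT and 3.71, 4.2 and 5.37 under the label shCDK12.

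The linker histone genes were led by H1-2 (Entrez gene 3006) and H1-4 (3008). H1-2 was at 2072, 2207 and 1933 CPM in shNT and 2715, 2051 and 2419 with OHT, and at 1258, 1031 and 1266 CPM under the label shCDK12 and 1525, 1692 and 1472 with OHT. H1-4 was at 1776, 1887 and 1954 CPM in shNT and 2525, 1841 and 2309 with OHT, and at 614, 473 and 533 CPM under the label shCDK12 and 604, 591 and 515 with OHT. H1-1 (3024) was at 283, 268 and 277 CPM in shNT and 177, 129.5 and 173 with OHT, and at 131, 111 and 133 CPM under the label shCDK12 and 158, 177 and 162 with OHT. H1-2 and H1-4 had no overlap between labels, whereas H1-1 was high only in shNT. H1-4 lost more than H1-2, with log2 fold changes of -1.80 ± 0.087 (SE) and -0.81 ± 0.08 without OHT and -1.95 ± 0.13 and -0.60 ± 0.11 with it, each with adjusted p at most 0.00142, although the difference between both genes was not tested. H1-1 was lower without OHT (log2 -1.15 ± 0.093, adjusted p = 1.12e-10) and not with it (log2 0.058 ± 0.13, adjusted p = 0.741).

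Among H2A genes, H2AC20 (8338), on chromosome 1, was at 1532, 1408 and 1400.3 CPM in shNT and 1972, 1468 and 2197 with OHT, and at 313, 251 and 276 CPM under the label shCDK12 and 258, 276 and 238 with OHT. H2AC11 (8969) was at 611, 742 and 657 CPM in shNT and 789, 744 and 926 with OHT, and at 296, 277 and 319.6 CPM under the label shCDK12 and 248, 279.7 and 215 with OHT. H2AC12 (85235) was at 490.0, 519 and 488 CPM in shNT and 628, 523 and 616 with OHT, and at 248, 237 and 230.4 CPM under the label shCDK12 and 154, 169 and 124 with OHT. The 6 lower libraries of each stayed clear of the 6 higher ones, and H2AC20, the most read H2A gene of shNT, lost most of these 3. It was 5.19-fold lower without OHT (log2 -2.38 ± 0.087, adjusted p = 3.08e-17) and 7.202-fold lower with it (log2 -2.85 ± 0.14, adjusted p = 1e-06). Its neighbour H2AC21 (317772) was 5.83-fold and 4.66-fold lower (-2.54 and -2.22 on the log2 scale). The largest fall of all without OHT was that of H2AC15 (8330), a gene with few counts (log2 -2.86 ± 0.24, adjusted p = 2.82e-10). It was at 26.7, 35.5 and 43.6 CPM in shNT and 14.1, 14.8 and 16.8 with OHT. Under the label shCDK12 it was at 3.94, 4.72 and 5.55 CPM, and at 6.79, 6.94 and 4.72 with OHT. In both shRNA comparisons H2AC15 passed the filter only through shNT or shNT+OHT, where it was high. Its direction there was thus set in advance, and without OHT it was under the filter when libraries were thinned.

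Among H2B genes, H2BC21 (8349) was at 869, 928 and 872 CPM in shNT and 1199, 1057 and 1183 with OHT, and at 456, 489 and 467 CPM under the label shCDK12 and 342, 381 and 319 with OHT. H2BC11 (8970) was at 684, 795 and 649 CPM in shNT and 837, 734 and 928 with OHT, and at 345, 308 and 340.3 CPM under the label shCDK12 and 256, 294 and 229 with OHT. H2BC12 (85236) was at 522, 525 and 508 CPM in shNT and 728, 596 and 697 with OHT, and at 466, 481 and 472 CPM under the label shCDK12 and 246, 255 and 225 with OHT. H2BC21 and H2BC11 were lower in both comparisons. For H2BC12 the 3 libraries labelled shCDK12 lay just under shNT, with a difference that was not called (log2 -0.14 ± 0.075, adjusted p = 0.12), and the 3 libraries labelled shCDK12+OHT lay far lower (log2 -1.46 ± 0.11, adjusted p = 6.33e-06). H2BC7 (8343) fell most in its class, from 184 ± 21.1 CPM (SD, n = 3) in shNT to 27.7 ± 5.57 CPM in the libraries labelled shCDK12, 6.54-fold (log2 -2.71 ± 0.13, adjusted p = 4.58e-15), and 4.63-fold with OHT (log2 -2.21 ± 0.12, adjusted p = 1.86e-06).

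Among H3 genes, H3C2 (8358) was at 1326, 1419.9 and 1254 CPM in shNT and 1326, 1077 and 1398 with OHT, and at 554, 523 and 586 CPM under the label shCDK12 and 662, 735 and 653 with OHT. H3C10 (8357) was at 263, 304 and 280.2 CPM in shNT and 330.2, 288 and 363 with OHT, and at 91.02, 96.9 and 84.8 CPM under the label shCDK12 and 90.5, 89.9 and 74.01 with OHT. H3C4 (8351) was at 231, 282 and 278 CPM in shNT and 195, 168 and 215 with OHT, and at 40.8, 40.5 and 54.2 CPM under the label shCDK12 and 43.7, 46.1 and 42.3 with OHT. All had no overlap between labels, and H3C4, whose annotated span overlaps H2AC7, lost most, 5.86-fold without OHT (log2 -2.55 ± 0.12, adjusted p = 2.82e-15) and 4.34-fold with it (log2 -2.12 ± 0.13, adjusted p = 3.1e-06).

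Among H4 genes, H4C5 (8367) was at 851, 950.1 and 862 CPM in shNT and 1180.2, 957 and 1176 with OHT, and at 249, 259 and 266 CPM under the label shCDK12 and 275, 312 and 272 with OHT. H4C2 (8366) was at 497, 586 and 482 CPM in shNT and 685, 461 and 642 with OHT, and at 285, 257 and 304 CPM under the label shCDK12 and 331, 369.7 and 291 with OHT. H4C8 (8365) was at 524, 618 and 428 CPM in shNT and 695, 524 and 614 with OHT, and at 263, 223 and 262 CPM under the label shCDK12 and 220.1, 224 and 180.1 with OHT. In each, the libraries labelled shCDK12 were all below the shNT libraries, and H4C5 lost most of these 3 (log2 -1.78 ± 0.079, adjusted p = 1.25e-15 without OHT and log2 -1.93 ± 0.11, adjusted p = 2.07e-06 with it).

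**Figure D2:**
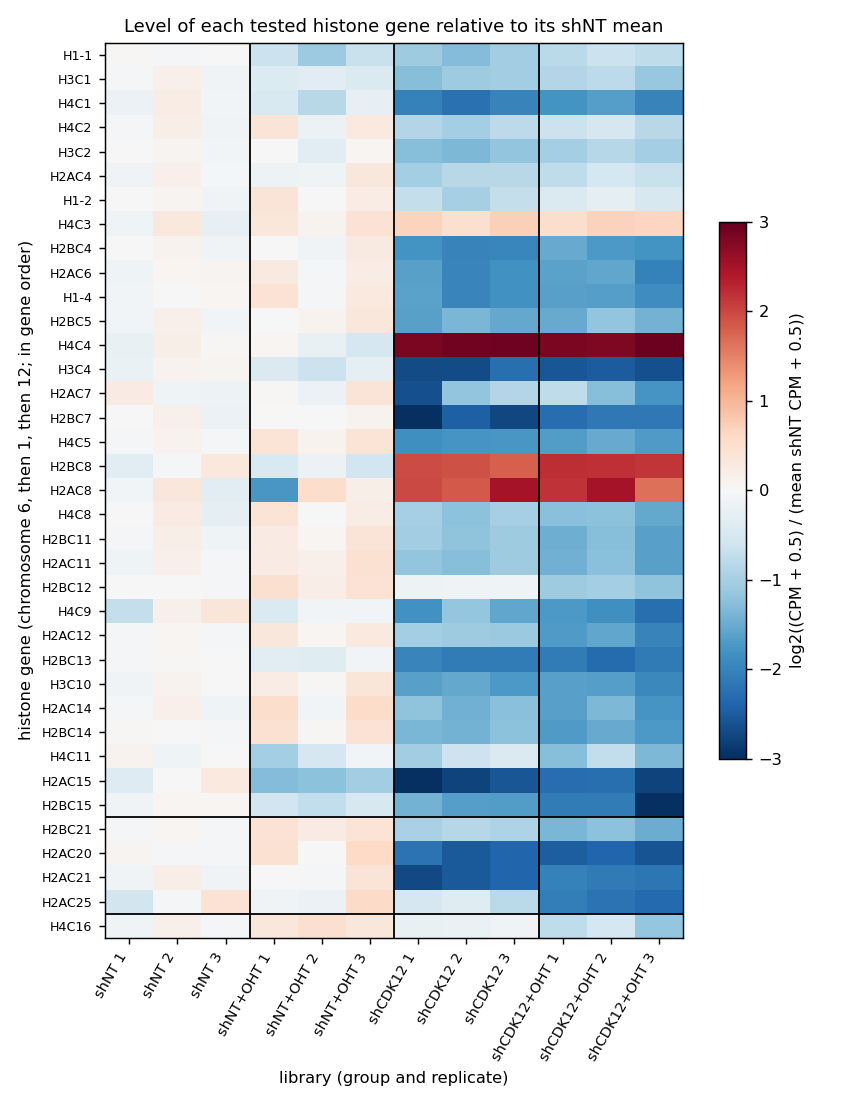
Level of the 37 tested histone genes (rows, in gene order on chromosomes 6, 1 and 12) in each of the 12 libraries (columns), as log2 of the ratio of CPM to the shNT mean after adding 0.5 to both, with colours saturated beyond 3 on the log2 scale. The right 6 columns are blue for most genes, and red for H4C3, H4C4, H2BC8 and H2AC8.

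The 4 genes that were higher went against the rest. H4C4 (8360) was at 3.28, 4.49 and 4.01 CPM in shNT and 4.07, 3.300 and 2.61 with OHT, and at 31.04, 32.5 and 32.8 CPM under the label shCDK12 and 30.7, 30.5 and 33.6 with OHT. H2BC8 (8339) was at 5.86, 7.22 and 9.52 CPM in shNT and 5.33, 6.599 and 4.93 with OHT, and at 30.8, 29.8 and 27.4 CPM under the label shCDK12 and 36.9, 36.1 and 35.01 with OHT. H2AC8 (3012) was at 3.05, 4.29 and 2.51 CPM in shNT and 0.627, 4.95 and 3.77 with OHT, and at 14.4, 13.01 and 20.9 CPM under the label shCDK12 and 16.4, 20.8 and 11.4 with OHT. All 3 were low in shNT and shNT+OHT, and every library labelled shCDK12 lay above all 6 of these. H4C4 was 8.13-fold higher without OHT (log2 3.02 ± 0.23, adjusted p = 5.83e-11) and 9.58-fold higher with it (log2 3.26 ± 0.26, adjusted p = 9.17e-06). H2BC8 was 4.06-fold and 6.74-fold higher (adjusted p = 2.81e-08 and 1e-05), and H2AC8 4.61-fold and 6.06-fold (adjusted p = 1.15e-06 and 0.00123). These 3 passed the filter only through the libraries where they were high and were not tested between shNT+OHT and shNT, so that they had to be higher to be tested at all. When libraries were thinned to equal totals, all 3 dropped under the filter in both comparisons.

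H4C3 (8364) was well read in every library, at 180.4, 244 and 166 CPM in shNT and 248, 213 and 266 with OHT, and at 312, 276 and 324 CPM under the label shCDK12 and 284, 321 and 306 with OHT. It was 1.53-fold higher in the libraries labelled shCDK12 than in shNT (log2 0.61 ± 0.11, adjusted p = 2.34e-05) and 1.26-fold higher with OHT (log2 0.34 ± 0.11, adjusted p = 0.0291). The call with OHT was lost with upper-quartile scaling, and without shNT+OHT replicate 2 or any of the 3 libraries labelled shCDK12+OHT, at adjusted p from 0.0602 to 0.13. H2AC8 fell under the filter with OHT without shCDK12+OHT replicate 1 or 2, so that 2 genes were then called higher. Among the 32 genes tested in all 5 comparisons H4C3 was the 1 that was higher in either, beside 29 that were lower without OHT and 30 with it.

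Genes for 1 and the same protein went opposite ways, but of the higher genes only H4C3 could have gone either way. H4C4, H2AC8 and H2BC8 had to be higher to be tested, so their contrasts below are no result. Proteins were read from the longest reading frame of each gene's shortest protein-coding GENCODE transcript. By these, H4C3 and H4C4 encode the same H4 as 11 other members, among them H4C5 and H4C1. H4C1 was 4.36-fold lower (log2 -2.12 ± 0.13, adjusted p = 1.21e-12). H2AC8 encodes the same H2A as H2AC4, which was 1.86-fold lower (log2 -0.90 ± 0.088, adjusted p = 3.8e-09). H2BC8 encodes the same H2B as H2BC7 and H2BC4, which was 3.83-fold lower (log2 -1.94 ± 0.10, adjusted p = 1.91e-14). On chromosome 6, H4C4 lay next to H3C4, H2BC8 next to H4C5 and H4C3 next to H1-2, and all 3 of these neighbours were lower. On the other side H2BC8 had H2AC8, which was higher. There H4C4 had H2BC6 and H4C3 had H1-6, which were tested in no comparison.

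**Figure D3:**
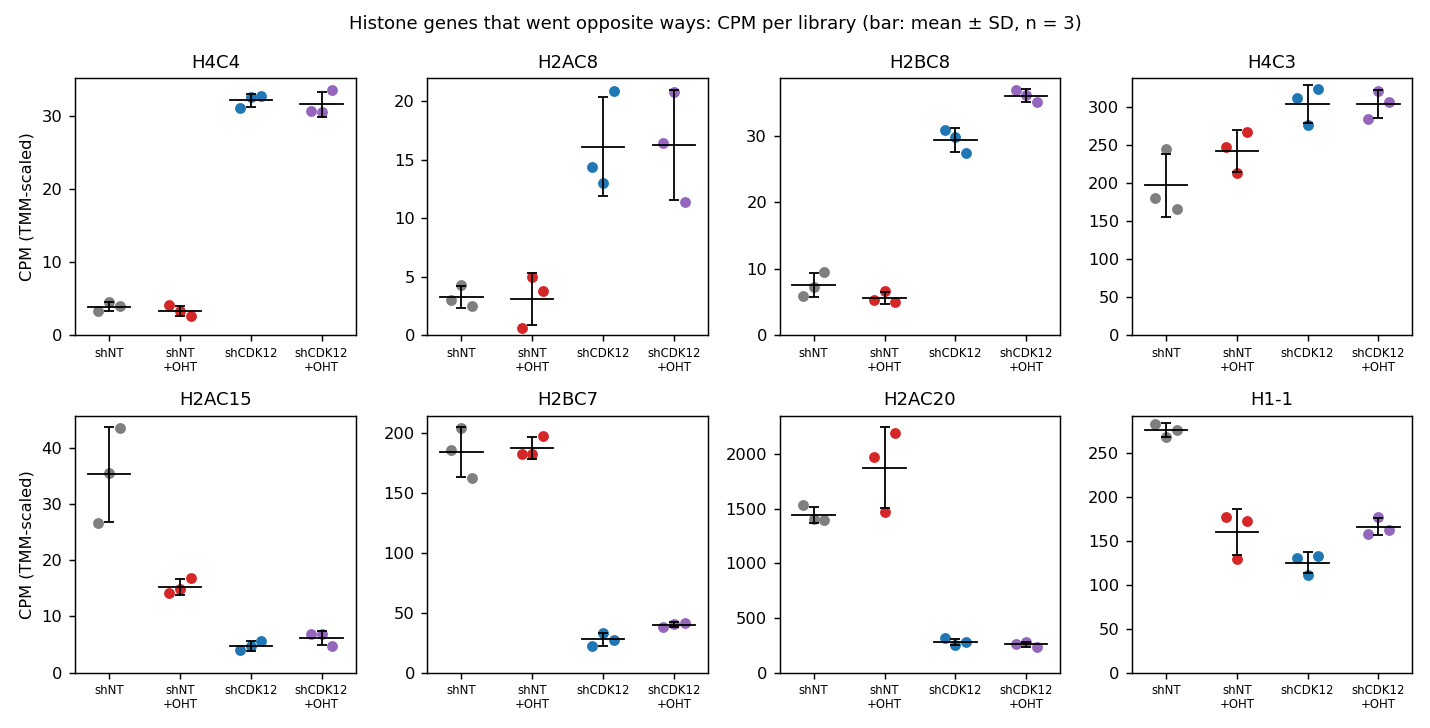
CPM (y axis, linear, from 0) of 8 histone genes in each library of the 4 groups (x axis), with the mean and SD of 3 libraries. H4C4, H2AC8, H2BC8 and H4C3 are higher in all 6 libraries labelled shCDK12, whereas H2AC15, H2BC7 and H2AC20 are lower in all 6 and H1-1 is high in shNT alone.

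H2A and H2B genes often share a promoter and are read away from each other. There were 10 such pairs among the members, with start sites 192 to 246 bases apart, and both genes were tested in 7. In 6 of these both genes were lower in the libraries labelled shCDK12 than in shNT. Both were lower with OHT too. Among these 6, H2AC7 and H2AC15 had to be lower to be tested, so the shared direction of their pairs is no result. Of all members tested, 81.1% were lower without OHT and 85.7% with it, against 32.8% and 22.2% of all genes. Most members thus agreed in direction whether paired or not. The other pair, H2AC8 with H2BC8, was tested only because both were high there, so its shared direction is no result. Sizes still differed within a pair. From 1 shared region, H2AC20 had a log2 fold change of -2.38 ± 0.087 (SE) and H2BC21 -0.92 ± 0.075, and H2AC15 had -2.86 ± 0.24 and H2BC15 -1.62 ± 0.18. H2AC11 (-1.17 ± 0.086) and H2BC11 (-1.10 ± 0.084), H2AC14 (-1.32 ± 0.11) and H2BC14 (-1.35 ± 0.091), and H2AC6 (-1.82 ± 0.10) and H2BC4 (-1.94 ± 0.10) lay within 2 SE of each other.

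Upon MycER activation in shNT cells, the share of histone genes that changed was near that of all genes. Of 32 tested, 3 were higher and 4 lower in shNT+OHT than in shNT (21.9%), where 17.9% of 9994 genes were called (9.37% higher and 8.49% lower), and the median was 0.18 against -0.027 over all genes. Higher were H4C16 (log2 0.38 ± 0.12, adjusted p = 0.0467), H2BC12 (log2 0.38 ± 0.11, adjusted p = 0.026) and H2BC21 (log2 0.36 ± 0.10, adjusted p = 0.019), each by 1.29-fold to 1.302-fold. Lower were H2AC15 (log2 -1.19 ± 0.26, adjusted p = 0.00668), H1-1 (log2 -0.78 ± 0.13, adjusted p = 0.00163), H3C4 (log2 -0.44 ± 0.13, adjusted p = 0.0318) and H3C1 (log2 -0.39 ± 0.12, adjusted p = 0.041). H2AC15 was 2.28-fold lower and H1-1 1.72-fold, with 3 of 3 libraries below all of shNT in both. Groups did not overlap for 6 genes that were higher and 7 that were lower, where 17.2% and 19% of all genes did so. The most read genes H1-2, H1-4, H2AC20, H3C2 and H4C5 were not called, at 0.21 ± 0.10, 0.25 ± 0.11, 0.37 ± 0.12, -0.075 ± 0.11 and 0.31 ± 0.11 (log2, SE). The number called rested on single libraries. Leaving out shNT replicate 1 left 3 called, shNT replicate 2 or 3 or shNT+OHT replicate 3 left 2, and 11 were called without shNT+OHT replicate 1 and 16, of them 13 higher, without shNT+OHT replicate 2, the shallowest library. H4C16, H2BC12 and H2BC21 were not called in the first 4 of these settings. The split was 5 higher and 3 lower with DESeq2 or with upper-quartile scaling and 1 higher and 10 lower with trends in gene length and GC content removed.

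In the libraries labelled shCDK12, 9 histone genes were higher with OHT and 9 lower of 36 (50%), again near the background, since 49.2% of 12389 genes were called (27.6% higher and 21.6% lower) and the median was 0.032 against 0.048 over all genes. The largest rises were H2BC7 (log2 0.50 ± 0.14, adjusted p = 0.0063), H2AC21 (log2 0.43 ± 0.10, adjusted p = 0.00218) and H1-1 (log2 0.41 ± 0.089, adjusted p = 0.000927), at most 1.42-fold. The largest falls were H2BC12, 1.95-fold (log2 -0.96 ± 0.074, adjusted p = 1.57e-08), H2BC15 (log2 -0.76 ± 0.23, adjusted p = 0.0106) and H2AC12 (log2 -0.67 ± 0.10, adjusted p = 1.81e-05). H1-2 was also higher (log2 0.40 ± 0.086, adjusted p = 0.000843), and H1 took 32.9% to 33.7% of histone counts in the libraries labelled shCDK12+OHT and 25.0% to 28.6% in those labelled shCDK12. The split was 5 higher and 10 lower with DESeq2, upper-quartile scaling or without shCDK12+OHT replicate 2, 6 and 11 without shCDK12 replicate 2, 6 and 7 without shCDK12+OHT replicate 1, and 13 higher and 6 lower with length and GC trends removed.

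The direction of these changes differed along chromosome 6, a pattern that was chosen after its values had been seen. Genes were put in 1 stretch where gaps between neighbours were at most 500 kb, which gave 3 stretches. In the first, from H2AC1 to H4C8, 8 of 20 tested genes were higher and 1, H4C8 at its end, was lower, with a median of 0.18. In the second, of H2BC11, H2AC11, H2BC12, H4C9 and H2AC12, 0 of 5 were higher and 4 lower, with a median of -0.49. In the third, 0 of 7 were higher and 2 lower, with a median of -0.27. Under every alternative run, the first stretch kept a positive median (0.052 to 0.33), the second a negative one (-0.67 to -0.29) and the third too (-0.39 to -0.087). These runs use the same libraries, so they are no independent support. In the first stretch 4 of 20 were called higher with DESeq2, upper-quartile scaling or 1 fit of all 12 libraries, and 12 with trends removed. In the third, thinned, 0 of 3 were called. Summed over its genes, the second stretch was at 1362, 1317 and 1372 CPM under the label shCDK12 and 1.49-fold lower with OHT, at 912, 1005 and 799.6 CPM, while the first was at 4388, 3913 and 4455 CPM and at 4904, 5343 and 4649 CPM, 1.17-fold higher.

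**Figure D4:**
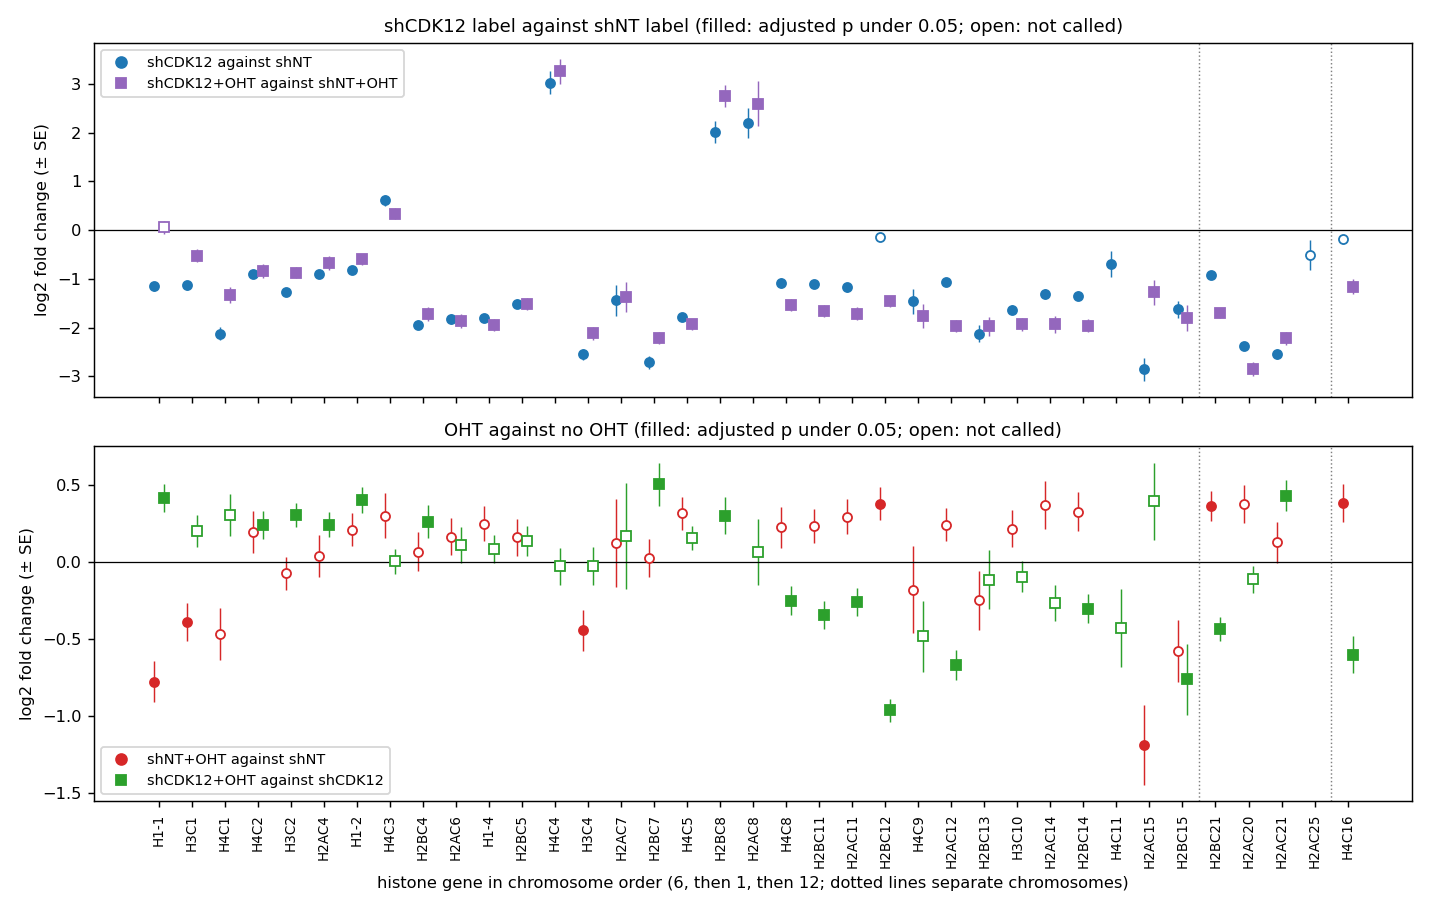
Log2 fold change with its SE (y axis) of each tested histone gene in gene order (x axis, chromosomes 6, 1 and 12 parted by dotted lines), in the shRNA comparisons (upper panel) and the OHT comparisons (lower panel). Filled marks are called. In the upper panel most genes lie between -0.5 and -3 and 4 genes lie above 0 in both comparisons, with H1-1 just above 0 in the one with OHT. In the lower panel the squares of shCDK12+OHT lie mostly above 0 up to H2AC8 and below 0 from H4C8 to H2BC14.

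The effect of OHT differed between the shRNA backgrounds for 16 of 36 genes (44.4%) by the interaction term of a fit over all 12 libraries, 6 higher and 10 lower in the libraries labelled shCDK12, where 46.1% of 11299 genes were called (26.1% higher and 20% lower) and the median was 0.0053 against 0.10 over all genes. The largest positive terms were those of H2AC15 (log2 1.57 ± 0.36, adjusted p = 0.00131), H1-1 (log2 1.18 ± 0.16, adjusted p = 7.46e-06) and H4C1 (log2 0.76 ± 0.22, adjusted p = 0.00827), and the largest negative ones those of H2BC12 (log2 -1.35 ± 0.13, adjusted p = 1.03e-07), H4C16 (log2 -0.99 ± 0.19, adjusted p = 0.000229) and H2AC12 (log2 -0.92 ± 0.15, adjusted p = 5.97e-05). H2BC12 was at 519 ± 9.04 CPM (SD, n = 3) in shNT and 674 ± 68.8 CPM in shNT+OHT, whereas under the label shCDK12 it was at 473 ± 7.88 CPM without OHT and 242 ± 15.3 CPM with it. H4C16, on chromosome 12 and apart from the clusters, was at 147, 176 and 155 CPM in shNT and 201, 223 and 201 with OHT, and at 135, 138 and 147 CPM under the label shCDK12 and 93.7, 110.2 and 70.6 with OHT. H2BC12, H4C16 and H2BC21 were each called higher with OHT in shNT and lower with OHT in the libraries labelled shCDK12, and H1-1 was called lower and then higher. These 2 OHT comparisons share no library. With upper-quartile scaling the interaction called 4 genes higher and 12 lower, with DESeq2 4 and 11, and with length and GC trends removed 14 and 4.

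**Figure D5:**
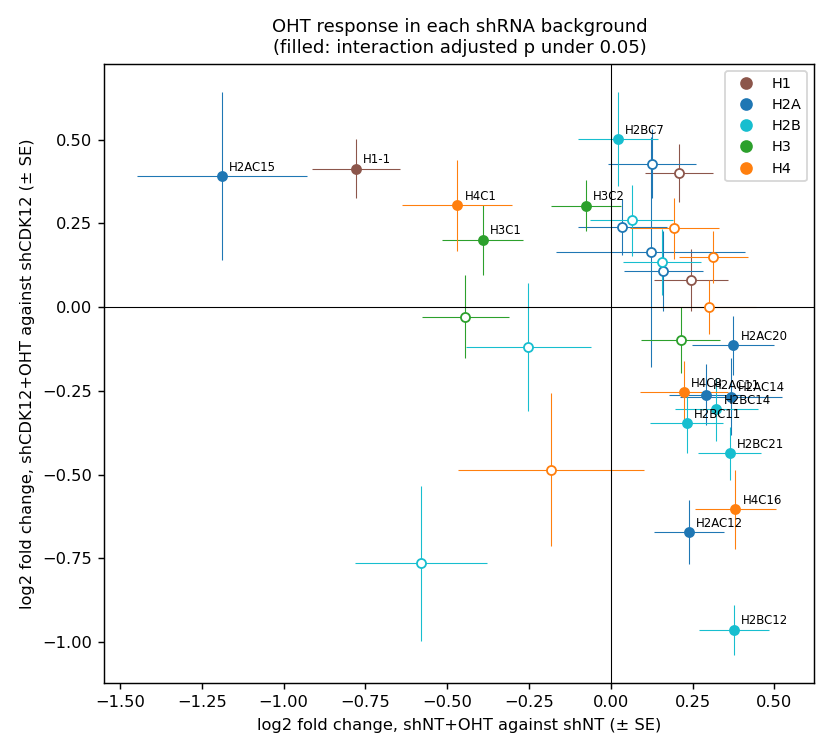
Log2 fold change with OHT in shNT (x axis) against that in the libraries labelled shCDK12 (y axis) for each histone gene tested in both, with SE bars, coloured by class and filled where the interaction was called. H1-1, H2AC15, H4C1 and H3C1 lie at the upper left, and H2BC12, H4C16, H2AC12 and H2BC21 at the lower right.

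The lists of genes below share CCNE2, SLBP and MCM2, each of which counts in 2 of them. Of 29 genes of the histone locus body, of pre-mRNA processing and of histone promoters, 8 were higher and 7 lower in the libraries labelled shCDK12 than in shNT (median -0.052). This was 51.7% called, against 62.5% of all genes. Their shares called in the other comparisons were 24.1% for OHT in shNT (17.9% of all genes), 37.9% for OHT under the label shCDK12 (49.2%), 48.3% for the shRNA comparison with OHT (46.3%) and 51.7% for the interaction (46.1%). NPAT, which organises the locus bodies, was at 162, 147 and 145 CPM in shNT and 88.98, 119 and 147 with OHT, and at 84.1, 83.8 and 76.98 CPM under the label shCDK12 and 91.3, 83.7 and 79.3 with OHT, lower without OHT (log2 -0.90 ± 0.10, adjusted p = 3.07e-08) and with it (log2 -0.46 ± 0.17, adjusted p = 0.0476), where 1 of the 3 shNT+OHT libraries lay within the range of the lower group. CASP8AP2 (FLASH), needed for cleavage, was lower without OHT (log2 -0.88 ± 0.11, adjusted p = 2.02e-07) and not called with it (log2 -0.36 ± 0.14, adjusted p = 0.0578). SLBP, which binds the stem-loop, was at 49.7, 60.1 and 47.6 CPM in shNT and 60.2, 61.9 and 63.8 with OHT, and at 81.5, 85.9 and 78.8 CPM under the label shCDK12 and 71.9, 73.1 and 66.8 with OHT, higher without OHT (log2 0.63 ± 0.12, adjusted p = 0.0001) and not called with it (log2 0.21 ± 0.12, adjusted p = 0.19). The largest changes without OHT in this list were those of CPSF2, an endonuclease complex subunit (log2 -1.06 ± 0.15, adjusted p = 9.07e-07), SRRT (log2 1.01 ± 0.087, adjusted p = 3.37e-10) and SNRPD3, a subunit of the U7 snRNP core (log2 0.91 ± 0.13, adjusted p = 9.74e-07). With OHT, 5 were higher and 9 lower against shNT+OHT (median -0.20), led by CCNE2 (log2 1.42 ± 0.22, adjusted p = 0.000518), NCBP2 (log2 -1.22 ± 0.12, adjusted p = 2.85e-05) and LSM11, another U7 subunit (log2 1.19 ± 0.26, adjusted p = 0.00346). In shNT+OHT against shNT, 4 were higher and 3 lower, and CCNE2 (log2 -1.32 ± 0.25, adjusted p = 0.00292) and LSM11 (log2 -0.93 ± 0.30, adjusted p = 0.046) fell most and SNRPB rose (log2 0.64 ± 0.15, adjusted p = 0.0107). In the OHT comparison of the libraries labelled shCDK12, 4 were higher and 7 lower, with HINFP, a factor of H4 promoters, higher (log2 0.59 ± 0.15, adjusted p = 0.00397) and SNRPB and SRRT lower (-0.55 ± 0.11 and -0.54 ± 0.08). The interaction was called for 6 higher and 9 lower, led by LSM11 (1.38 ± 0.31), CCNE2 (1.301 ± 0.29) and SNRPB (-1.19 ± 0.20).

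Of 26 S phase genes, 12 were higher (46.2%, against 29.8% of all genes) and 5 lower (19.2%, against 32.8%) in the libraries labelled shCDK12 than in shNT, with a median of 0.23 against -0.029 over all genes, and their summed level was 3178 to 3187 CPM there and 2527 to 2769 CPM in shNT. MCM2 (log2 0.91 ± 0.10, adjusted p = 3.64e-08) and GINS2 (log2 0.84 ± 0.15, adjusted p = 3.54e-05) rose and GINS1 fell (log2 -1.17 ± 0.12, adjusted p = 1.15e-08). Between the libraries labelled shCDK12+OHT and shCDK12, 0 were higher and 18 lower (69.2%, against 21.6% of all genes), led by CDC45 (log2 -0.89 ± 0.13, adjusted p = 2.72e-05), CDT1 (log2 -0.80 ± 0.10, adjusted p = 5.77e-06) and MCM4 (log2 -0.75 ± 0.084, adjusted p = 1.33e-06), with a median of -0.53. The 20 G2/M genes were all lower there (100%, against 21.6%), with a median of -0.80, led by KIF20A (log2 -1.36 ± 0.12, adjusted p = 6.44e-08), PLK1 (log2 -1.24 ± 0.15, adjusted p = 2.54e-06) and CCNA2 (log2 -1.01 ± 0.095, adjusted p = 1.57e-07), whereas the histone genes had 9 higher and 9 lower. Against shNT+OHT, 2 S phase genes were higher and 8 lower (38.5% called, against 46.3%) in the libraries labelled shCDK12+OHT, with CCNE2 (1.42 ± 0.22), GINS1 (-1.87 ± 0.16) and CDT1 (-1.02 ± 0.13) changed most. Of the G2/M genes 0 were higher and 16 lower (80% against 22.2%), led by AURKB (-1.88 ± 0.17), UBE2C (-1.35 ± 0.13) and KIF20A (-1.32 ± 0.18). Without OHT 8 G2/M genes were higher and 5 lower against shNT (65% called, near the 62.5% of all genes). In shNT+OHT against shNT 1 of 20, KIF20A (0.61 ± 0.19), was higher (5% called, against 17.9% of all genes). Of 25 S phase genes 2 were higher and 3 lower there (20%, near the 17.9%). The interaction was called lower for 18 G2/M genes (90%) and 11 S phase genes (42.3%), against 20% of all genes, and higher for 0 and 1. The cell cycle stage of the cells was not measured here, and its part in the histone values was not tested.

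Of 23 histone chaperone genes, 8 were higher and 6 lower in the libraries labelled shCDK12 than in shNT. This was 60.9% called, near the 62.5% of all genes. SPTY2D1 rose (log2 1.73 ± 0.089, adjusted p = 2.09e-14), and ASF1B, which carries H3 and H4, fell (log2 -1.18 ± 0.19, adjusted p = 9.71e-06) and was lower with OHT too (log2 -0.92 ± 0.23, adjusted p = 0.00774). With OHT in the libraries labelled shCDK12, 1 was higher and 11 lower (52.2% called, against 49.2%), among them CHAF1A of the assembly factor CAF-1 (log2 -0.70 ± 0.10, adjusted p = 1.19e-05). The interaction was called for 3 higher and 8 lower (47.8%, near the 46.1% of all genes). In shNT+OHT against shNT 3 were higher and 1 lower (17.4%, against 17.9%). In the comparison of shCDK12+OHT with shNT+OHT 4 were higher and 6 lower (43.5%, against 46.3%). Of the histone variants that are made outside S phase as well, H2AX (log2 0.91 ± 0.11, adjusted p = 7.49e-08), H3-3A (log2 0.91 ± 0.28, adjusted p = 0.00656), H2AZ1 (log2 0.51 ± 0.10, adjusted p = 0.000176) and H3-3B (log2 0.42 ± 0.078, adjusted p = 6.16e-05) were higher in the libraries labelled shCDK12 than in shNT, and H1-10 (log2 -0.79 ± 0.12, adjusted p = 6.1e-06) was lower. With OHT, H2AX (log2 -0.61 ± 0.14, adjusted p = 0.00382) and H1-10 (log2 -0.54 ± 0.13, adjusted p = 0.00605) were lower. Between the libraries labelled shCDK12+OHT and shCDK12, H3-3A (log2 -1.06 ± 0.21, adjusted p = 0.000486), H2AX (log2 -0.97 ± 0.10, adjusted p = 6.74e-07) and H3-3B (log2 -0.30 ± 0.08, adjusted p = 0.00446) were lower, and in shNT+OHT against shNT H2AX was higher (log2 0.56 ± 0.14, adjusted p = 0.0157).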

How the data were processed

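EU-seq libraries of U2OS-MycER cells (12, in 4 groups of 3) were analysed from the table of raw counts per Entrez gene that the authors deposited, without normalization. The labels and the submitters' processing notes name STAR 2.7.5c, featureCounts 1.4.5-p1 and hg19. Strand, multiple matches and the handling of mouse reads are not given in the sources used here. Symbols for 23284 of 23434 rows, promoters and gene order came from RefSeq (GRCh38.p14), and transcripts from GENCODE v44. The other 150 rows were kept in the fits.

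Counts were tested with edgeR 4.0.16 in R 4.3.3 (TMM, quasi-likelihood test, Benjamini-Hochberg adjusted p under 0.05) after a filter that kept genes whose normalized counts averaged over 32 in the fit, with 6 libraries per comparison and all 12 for the interaction, and the test was checked on simulated data. Values are CPM scaled by TMM. A call refers to all genes tested.

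The members, lists and tests were chosen with earlier results of these data known. The lists are general knowledge. Named are the 3 highest members of each class by mean CPM and the 3 largest rises and falls called in each comparison, and other genes were named after their values were seen. Of the variant list, 1 gene is not reported here. Alternatives were DESeq2 1.42.0, upper-quartile scaling, scaling without the members, other filters, 1 fit of all libraries, a replicate block, thinning, removal of length and GC trends (loess), summing members with identical proteins, and leaving out each library.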

Additional observations from a re-analysis of the deposited data

Results flagged for a closer look

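The effect of OHT differed between shNT and the libraries labelled shCDK12, by edgeR's test of the interaction with Benjamini-Hochberg adjustment, for 13 of the named histone genes and for CDK12. Of all histone genes tested 44.4% were called, near the 46.1% of all genes. Positive terms, in log2 units, were 1.57 for H2AC15, 1.18 for H1-1, 0.76 for H4C1, 0.48 for H2BC7 and 0.37 for H3C2. Negative terms were -1.35 for H2BC12, -0.99 for H4C16, -0.92 for H2AC12, -0.80 for H2BC21, -0.58 for H2BC11, -0.56 for H2AC11, -0.50 for H2AC20 and -0.48 for H4C8. Adjusted p-values ran from 1.03e-07 for H2BC12 to 0.043 for H2BC7. The term of CDK12 was -0.83 (adjusted p = 4.42e-05), with a level that was higher with OHT in shNT and lower with OHT in the libraries labelled shCDK12. Causes of these differences were not tested.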

How the results depend on the processing

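The members called changed most in shNT+OHT against shNT, 7 at first, with 11 in 1 fit of all 12 libraries, 11 with length and GC trends removed, and 2 to 16 when a library was left out. The interaction called 16, and 10 when thinned to 1251695 counts. Medians of the members were -0.089 with trends removed in shNT+OHT against shNT, for shCDK12 against shNT -1.07 without a filter and -1.48 with trends removed, for shCDK12+OHT against shCDK12 likewise -0.22 and 0.16, for shCDK12+OHT against shNT+OHT -1.49 without a filter, -1.54 with filterByExpr and -1.48 with trends removed, and -0.26 when thinned and 0.26 with trends removed in the interaction, whose range with a library left out was -0.14 to 0.084. CDK12 in shCDK12 against shNT turned to 0.015 with upper-quartile scaling and 0.0031 with trends removed, and in shNT+OHT against shNT it stayed higher (0.33 to 0.49 with a library left out) but was not called without shNT replicate 1, 2 or 3 or shNT+OHT replicate 3. The median of all genes in the interaction was 0.10, and -0.019 with upper-quartile scaling and -0.037 with trends removed, and in shCDK12+OHT against shNT+OHT 0.041, and -0.095 with trends removed. The cause of these shifts was not tested. Fold changes followed gene length in shNT+OHT against shNT (r = -0.30 across genes, which are not independent).

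In both shRNA comparisons 32 to 34 members were called with any library left out. Thinned, 1 was higher and 26 lower without OHT, and 1 and 25 with it, since fewer passed the filter. Of the 30 named results, 24 kept direction and call under every alternative in which they could be fitted, but 9 of these were under the filter when thinned, the rises of H4C4, H2BC8 and H2AC8 in both shRNA comparisons among them, and H2AC8 with OHT also without shCDK12+OHT replicate 1 or 2. The other 6 kept direction but lost the call under some, namely H2AC15, H2BC12, H2BC21, H3C4 and H4C16 in shNT+OHT against shNT and H4C1 in the interaction. Replicate numbers paired the libraries weakly if at all. Deviations of same-numbered libraries correlated at -0.092 to 0.30 (median 0.025) over 18 pairs, 2 of them over 0.1. Those of libraries with different numbers correlated at -0.34 to 0.098 (median -0.015) over 36 pairs, 0 of them over 0.1. With the replicate block 6 members were called for OHT in shNT, 34 in each shRNA comparison, and 17 each for OHT under the label shCDK12 and for the interaction. Libraries of 1251695 to 10447836 counts limit the genes with few counts, least precisely read in shNT+OHT.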
